A study of Volvox carteri with 4 samples.

Results

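Transcript levels of 7 genes at the entry of the tricarboxylic acid (TCA) cycle were compared between the 2 cell-types of the multicellular green alga Volvox carteri. The genes were PDH1a (Vocar.0023s0019), DLD1 (Vocar.0027s0029), DLD2 (Vocar.0007s0425), CIS1 (Vocar.0006s0313), IDH1 (Vocar.0004s0404), IDH2 (Vocar.0054s0043) and IDH3 (Vocar.0025s0166). They were taken by name, as the pyruvate dehydrogenase, citrate synthase and isocitrate dehydrogenase genes that the study discussed. DLD2 is the exception, since the study named it with oxoglutarate dehydrogenase. Together they are 7 of 16008 gene models. The study named them for higher expression in gonidia of these same libraries while leaving other subunits of the same enzymes unnamed. Their shared direction is therefore no independent evidence of how the pathway as a whole was expressed.

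Pyruvate dehydrogenase is a multienzyme complex that turns pyruvate into acetyl-CoA through its E1, E2 and E3 components. Citrate synthase joins acetyl-CoA to oxaloacetate, aconitase isomerizes the citrate, and isocitrate dehydrogenase oxidizes isocitrate to 2-oxoglutarate with NAD or NADP as electron acceptor. Isocitrate is also the branch point at which isocitrate lyase can divert carbon into the glyoxylate cycle, and 2-oxoglutarate is the carbon skeleton onto which ammonium is assimilated as glutamate.

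RNA-seq had been done on 2 gonidial and 2 somatic preparations of the female strain Eve of V. carteri f. nagariensis, with no transgene or treatment in either cell-type. Gonidia are the large, nonmotile reproductive cells and somatic cells the small, flagellated cells of the spheroid. All preparations came from hatched adults at hour 42 of a life cycle of 48 hr, when the second light period had lasted 6 hr and the gonidia had not yet cleaved. Spheroids of several flasks were pooled for each preparation, a culture gave either gonidia or somatic cells but never both, and 1 stage was sampled. The protocols also differed, since gonidia were pelleted and somatic cells taken as floating sheets, so that cell-type and isolation procedure cannot be told apart.

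Counted reads summed to between 10838222 and 13104583 per library, and 13350 genes passed the filter on low counts, all 7 genes among them. The somatic regulator regA had 1 and 0 counts in gonidia and 486 and 786 in somatic cells. All 28 somatic markers (regA and 27 intraflagellar transport genes) were called somatic, beside 26.0% of all tested genes. The summed level of the 28 markers was 234 and 214 counts scaled to a common total (CPM) in gonidia and 7687 and 8190 CPM in somatic cells. Of 19 earlier cDNA clones isolated as gonidial, 9 were called gonidial, 2 somatic and 8 neither, from −3.92 for G36 to 2.33 for G15 on the log2 scale. The gonidial calls were near the share over all tested genes, 46.7%, so at the 2-fold limit these clones did not stand out. By an edgeR adjusted p-value under 0.05 alone, 17 of the 19 were higher in gonidia, beside 51.7% of all tested genes. In 17 both gonidial libraries lay above both somatic ones, beside 57.2% of all tested genes, and in 2 the reverse held.

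All 7 genes were more abundant in gonidia, and in each of them both gonidial libraries lay above both somatic libraries. IDH3, the NADP-dependent isocitrate dehydrogenase, differed most, by 121-fold, and PDH1a, the E1 beta subunit of mitochondrial pyruvate dehydrogenase, differed least, by 3.02-fold. By the quasi-likelihood test of edgeR, with correction over the tested genes by Benjamini-Hochberg, the adjusted p-values lay between 2.31e-12 and 1.44e-06. All 7 were called gonidial (adjusted p-value under 0.05 and at least 2-fold higher in gonidia), against a background of 46.7% of all tested genes. IDH3, IDH1, CIS1 and DLD2, 4 of the 7, passed the 5-fold limit of a gonidial-specific gene, against 29.1% of all tested genes. The other 3, DLD1, IDH2 and PDH1a, were gonidial-biased, that is, between 2-fold and 5-fold. The median log2 fold change (somatic over gonidial) was −2.82 over the 7 genes and −0.85 over all tested genes. Gonidial libraries lay above both somatic libraries in 57.2% of all tested genes. Since values are relative to the RNA of each library, fewer molecules of a transcript per cell and a different number of cells or amount of other RNA behind them cannot be told apart.

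**Figure D1:**
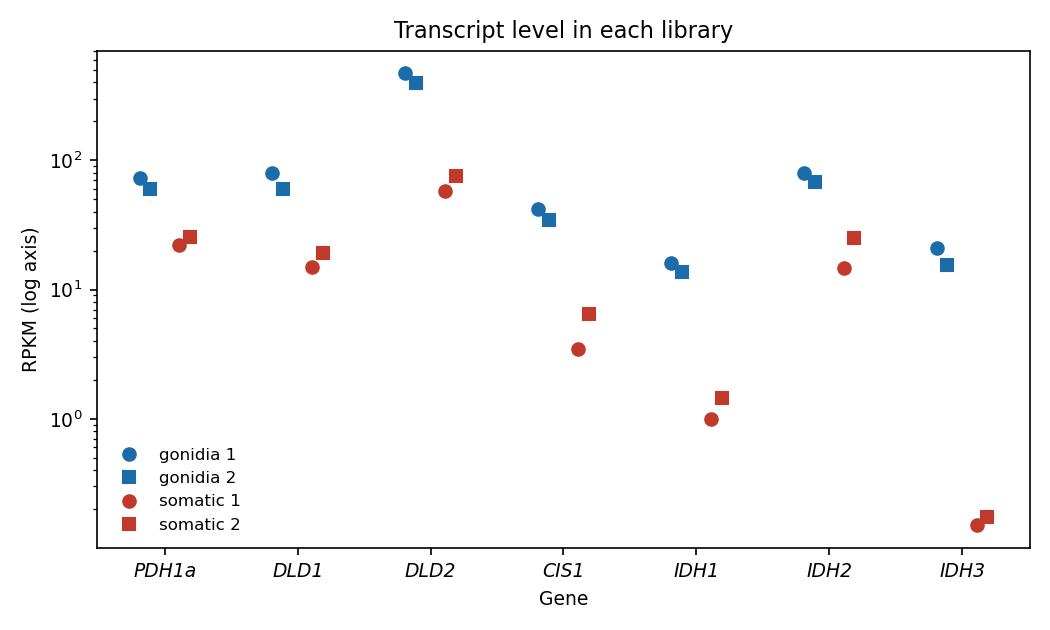
Reads scaled to gene length and library total (RPKM, log axis) of the 7 genes in each library, with circles for replicate 1, squares for replicate 2, blue for gonidia and red for somatic cells. Every blue point lies above both red points of its gene, and the gap is widest for IDH3, at 20.8 and 15.5 RPKM in gonidia and 0.150 and 0.173 RPKM in somatic cells.

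Pyruvate dehydrogenase was represented by PDH1a and DLD1. PDH1a encodes the beta subunit of E1, the component that decarboxylates pyruvate. Its normalized counts were 3242 and 2825 in gonidia and 957 and 1054 in somatic cells. The replicates differed by at most 1.15-fold, and the groups did not overlap. The log2 fold change was −1.59 (SE 0.22, n = 2 per cell-type, adjusted p = 1.44e-06 by edgeR's quasi-likelihood test), and somatic cells held 33.2% of the gonidial level.

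DLD1 encodes dihydrolipoamide dehydrogenase, the E3 component that reoxidizes the lipoyl groups of E2, and is annotated as E3 of both the pyruvate and the oxoglutarate dehydrogenase complex. It had 2247 and 1779 normalized counts in gonidia and 403 and 497 in somatic cells. Both somatic libraries were far below both gonidial ones. The log2 fold change of DLD1 was −2.16 (SE 0.24, adjusted p = 8.01e-08 by edgeR), a 4.47-fold difference.

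The remaining subunits of the complex, which the study did not name, differed less. Since the study named genes for their direction, this follows in part from that choice. PDC1, the E1 alpha subunit that forms the E1 heterotetramer with PDH1a's product, had 1915 and 1825 normalized counts in gonidia and 877 and 1098 in somatic cells. Its groups did not overlap, but the difference of 1.89-fold (log2 −0.92, SE 0.22, edgeR adjusted p = 8.03e-04) was below the 2-fold limit. With TMM (trimmed mean of M values) scaling the log2 value of PDC1 was −0.33 (edgeR adjusted p = 0.127) and with DESeq2's size factors −0.21 (adjusted p = 0.336), so that it no longer passed the test, whereas without somatic replicate 2 it passed 2-fold at −1.09. DLA1, the E2 acetyltransferase, had 3394 and 3015 against 1137 and 1504 normalized counts and was called gonidial at 2.43-fold (log2 −1.28, SE 0.22, edgeR adjusted p = 2.84e-05), but not with TMM (−0.69) or DESeq2's size factors (−0.57).

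Within a library, where the scaling between libraries plays no part, the subunits were not in the same proportion in both cell-types. The RPKM ratio of PDH1a to PDC1 was 1.02 and 0.934 in gonidia and 0.659 and 0.579 in somatic cells. The 2 subunits of E1 were thus at nearly equal level in gonidia, and PDH1a was the lower in both somatic libraries, a difference of −0.66 on the log2 scale (pooled SD 0.11). The ratio of DLD1 to DLA1 was 0.684 and 0.610 in gonidia and 0.366 and 0.341 in somatic cells, a log2 difference of −0.87 (pooled SD 0.10). For these and all other ratios, a two-sided exact permutation test of 2 against 2 libraries cannot give less than p = 0.333, which it gave wherever the groups did not overlap. Of the summed RPKM of PDC1, PDH1a, DLA1 and DLD1, the DLD1 share was 22.4% ± 1.59 (SD, n = 2) in gonidia and 13.3% ± 0.0974 (SD, n = 2) in somatic cells. The PDC1 share was 21.8% ± 1.30 in gonidia and 30.3% ± 0.117 in somatic cells.

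DLD2, the second dihydrolipoamide dehydrogenase gene, was the most abundant of the 7 genes in every library, per length as well as by counts. It had 22657 and 19911 normalized counts in gonidia and 2674 and 3342 in somatic cells. The groups were far apart, at a log2 fold change of −2.82 (SE 0.21, edgeR adjusted p = 4.23e-10), or 7.07-fold. DLD2 is listed with the oxoglutarate dehydrogenase complex, but the study's annotation predicts a chloroplast location for its Chlamydomonas ortholog. Reads were counted only where they mapped uniquely, so any stretch that DLD1 and DLD2, or CIS1 and CIS2, share added to neither.

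DLD2 was therefore set beside the other genes of both complexes. OGD1 and OGD2, listed subunits of the oxoglutarate dehydrogenase complex, did not pass the 2-fold limit, and both depended on the scaling. OGD1 had 1747 and 1426 counts in gonidia and 1679 and 2485 in somatic cells, with overlapping normalized values (log2 fold change 0.21, SE 0.22, edgeR adjusted p = 0.365), and was higher in somatic cells with TMM (0.81, edgeR adjusted p = 9.71e-04) and DESeq2's size factors (0.93, adjusted p = 5.36e-04). OGD2 had 784 and 653 against 481 and 651 counts (log2 fold change −0.52, SE 0.23, edgeR adjusted p = 0.0447), and its sign turned under TMM scaling (0.085) and DESeq2's size factors (0.20). The RPKM ratio of DLD2 to OGD2 was 19.1 and 19.3 in gonidia and 3.56 and 4.19 in somatic cells.

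The plastid pyruvate dehydrogenase, which supplies acetyl-CoA for fatty acid synthesis, had levels much closer to those of DLD2. All 3 of its listed genes were called gonidial, beside 46.7% of all tested genes. Their log2 fold changes were −2.52 for PDC2 (E1 alpha), −2.74 for PDH2 (E1 beta) and −3.23 for DLA2 (E2). The study had described this complex as gonidial-specific in these same libraries, so the direction of its genes is no independent evidence. PDH2 was at 386 and 389 RPKM in gonidia and 58.8 and 67.6 RPKM in somatic cells, beside 470 and 394 RPKM and 57.4 and 75.6 RPKM for DLD2. The RPKM ratio of DLD2 to PDH2 was 1.22 and 1.01 in gonidia and 0.976 and 1.12 in somatic cells, and here the cell-types overlapped. This held for PDH2 only. PDC2 was at 347 and 286 RPKM in gonidia and 54.9 and 65.1 RPKM in somatic cells, and DLA2 at 268 and 222 RPKM and 19.8 and 37.3 RPKM. Relative to DLD2, PDC2 was higher and DLA2 lower in both somatic libraries than in both gonidial ones. The ratio of DLD2 to DLD1 was 5.89 and 6.54 in gonidia and 3.88 and 3.93 in somatic cells, so that DLD2 differed more than DLD1 between the cell-types in each of the 4 pairs of libraries.

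Citrate synthase was represented by CIS1, listed as the TCA cycle enzyme. CIS1 had 1316 and 1142 normalized counts in gonidia and 105 and 187 in somatic cells. The somatic libraries differed from each other by 1.78-fold, the widest gap between replicates among the 7 genes, and both lay far below the gonidial ones. The log2 fold change was −3.06 (SE 0.28, edgeR adjusted p = 7.1e-09), or 8.35-fold.

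The other citrate synthase gene, CIS2, is listed with the glyoxylate cycle and did not follow CIS1. Its counts were 599 and 566 in gonidia and 502 and 666 in somatic cells. The log2 fold change of CIS2 was −0.17 (SE 0.23, edgeR adjusted p = 0.502), and under TMM scaling (0.43) and DESeq2's size factors (0.54, with adjusted p = 0.0197) its sign turned. Within libraries the ratio of CIS1 to CIS2 RPKM was 2.39 and 2.10 in gonidia and 0.221 and 0.377 in somatic cells. CIS1 was thus the more abundant citrate synthase transcript in both gonidial libraries and CIS2 in both somatic ones. The log2 ratio differed by −2.96 (pooled SD 0.40), and the CIS1 share of the summed RPKM was 69.1% ± 1.92 (SD, n = 2) in gonidia and 22.7% ± 6.56 (SD, n = 2) in somatic cells. Aconitase (ACH1), the enzyme between citrate synthase and isocitrate dehydrogenase, changed by less than 2-fold, and the RPKM ratio of CIS1 to ACH1 was 0.353 and 0.362 in gonidia and 0.0465 and 0.0812 in somatic cells.

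Isocitrate dehydrogenase held both the gene that differed most and a gene that differed among the least. IDH1, the regulatory subunit of the NAD-dependent enzyme, had 398 and 356 normalized counts in gonidia and 23.6 and 32.9 in somatic cells. The groups did not overlap, and the log2 fold change was −3.72 (SE 0.30, edgeR adjusted p = 1.27e-09), or 13.2-fold. IDH2, the catalytic subunit of the same enzyme, had 2307 and 2067 against 409 and 670 normalized counts. Its log2 fold change of −2.02 (SE 0.25, edgeR adjusted p = 4.66e-07) was a 4.05-fold difference, although its somatic libraries stood 1.64-fold apart.

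IDH3 encodes the NADP-dependent enzyme, which is a separate protein and a source of NADPH. It had 785 and 612 normalized counts in gonidia and 5.37 and 5.90 in somatic cells. In raw reads this was 755 and 564 counts against 5 and 7, and the 12 somatic counts together have an exact 95% Poisson interval of 6.2 to 21 counts, which covers counting error only. The log2 fold change was −6.92 (SE 0.37, edgeR adjusted p = 2.31e-12), and somatic cells held 0.807% of the gonidial level. A log2 fold change at least as far toward gonidia was found in 2.16% of all tested genes, compared with 14.6% for IDH1, 20.4% for CIS1, 22.8% for DLD2 and 39.1% for PDH1a.

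The makeup of isocitrate dehydrogenase transcripts therefore differed between the cell-types. IDH2 took 69.2% ± 1.16 (SD, n = 2) of the summed IDH1, IDH2 and IDH3 RPKM in gonidia and 93.4% ± 0.839 (SD, n = 2) in somatic cells. IDH3 took 16.9% ± 1.37 in gonidia and 0.798% ± 0.218 in somatic cells, and IDH1 took 13.9% ± 0.210 and 5.83% ± 0.621. The ratio of the regulatory to the catalytic NAD subunit, IDH1 to IDH2, was 0.201 in both gonidial libraries, compared with 0.0676 and 0.0574 in somatic cells, a log2 difference of −1.69 (pooled SD 0.12). The catalytic transcript was the more abundant of the pair in every library.

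**Figure D2:**
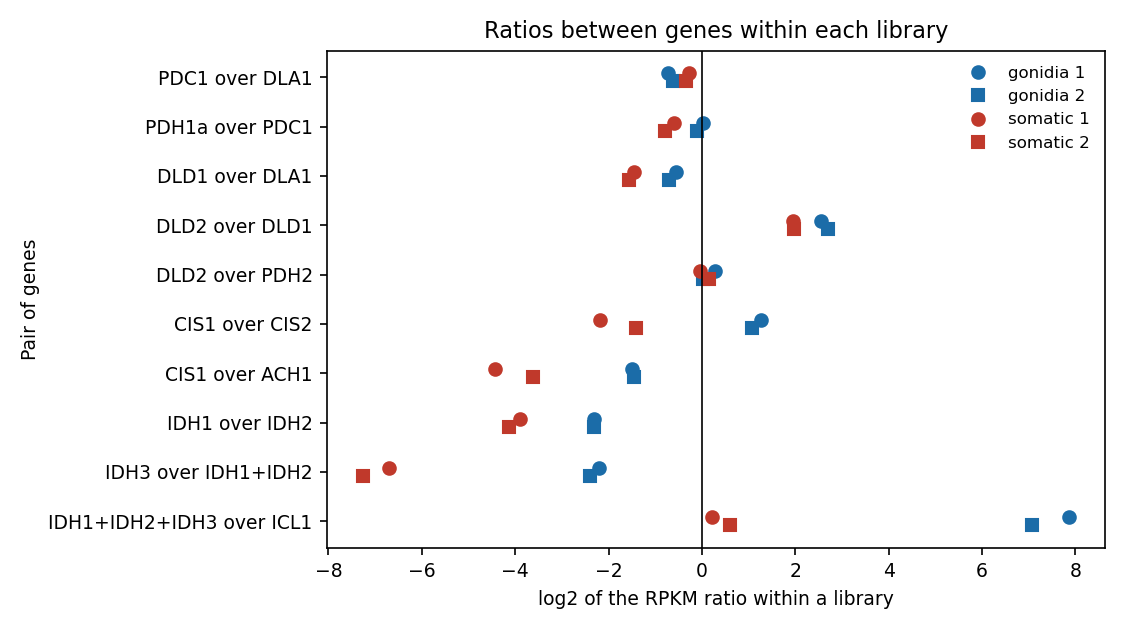
Log2 of the RPKM ratio between pairs of genes within each library, with circles for replicate 1, squares for replicate 2, blue for gonidia and red for somatic cells. Gonidial and somatic points overlap only for DLD2 over PDH2, and the log2 ratio of summed isocitrate dehydrogenases to ICL1 shows the widest gap of those drawn, a difference of −7.06.

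At the branch point, isocitrate lyase (ICL1) ran opposite to the isocitrate dehydrogenases. ICL1 had 13 and 19 counts in gonidia and 336 and 523 in somatic cells, a log2 fold change of 4.55 (SE 0.33, edgeR adjusted p = 2.46e-10). Malate synthase (MAS1), the next enzyme of the glyoxylate cycle, had 33 and 27 counts against 465 and 673, a log2 fold change of 4.06. The study had named ICL1 and MAS1 as somatic, and the dehydrogenases as gonidial, from these same libraries. Their opposite direction, and the ratio between them, therefore follow in part from that choice and are no independent evidence. The summed RPKM of IDH1, IDH2 and IDH3 stood at 117 and 97.2 in gonidia and 15.8 and 26.8 in somatic cells. Divided by that of ICL1 this gave ratios of 234 and 135 in gonidia and 1.16 and 1.53 in somatic cells, so that dehydrogenase transcripts still outnumbered lyase transcripts per length in both somatic libraries. The log2 ratio differed by −7.06 (pooled SD 0.45). Of the 6 listed glyoxylate genes, 3 were called somatic (ICL1, MAS1 and the acetyl-CoA synthetase ACS3), against a background of 26.0%. Of the others, 1 was called gonidial (ACS2, −1.24 on the log2 scale), against 46.7%, and 2 were neither.

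The 16 other genes that the study lists under the TCA cycle include acetate kinase, acetyl-CoA synthetase and ATP citrate lyase. They remained once the 7 had been named for their direction in these libraries. A smaller difference in the 16 therefore follows in part from that choice. DLA1 and FUM1 were called gonidial, beside 46.7% of all tested genes. Another 2 of the 16 were called somatic, beside 26.0%, and 12 were neither. The median log2 fold change of the 16 was −0.39, compared with −2.82 for the 7 genes and −0.85 for all tested genes. FUM1, a fumarase, had the change furthest toward gonidia, at 47 and 50 counts against 15 and 26 (log2 −1.42, SE 0.38, edgeR adjusted p = 0.00198). Acetate kinase (ACK2) lay furthest toward somatic cells at 1.24 (SE 0.24, edgeR adjusted p = 1.23e-04), and SDH2, a succinate dehydrogenase subunit, was the other gene called somatic (1.17, SE 0.24, edgeR adjusted p = 1.79e-04). By adjusted p-value alone, 8 of the 16 were higher in gonidia and 2 in somatic cells, against backgrounds of 51.7% and 29.2%. Without somatic replicate 2, 4 of the 16 were called gonidial, beside 47.3% of all tested genes in that fit. With TMM scaling 0 were called gonidial and 2 somatic by edgeR (2 higher in gonidia and 7 in somatic cells at an unadjusted p under 0.05), and with DESeq2's size factors 0 and 4 (1 and 7 at an unadjusted p under 0.05), in fits that called 38.0% and 36.2% of all tested genes gonidial and 32.2% and 33.6% somatic. The DESeq2 Wald test with the study's size factors called 2 gonidial.

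**Figure D3:**
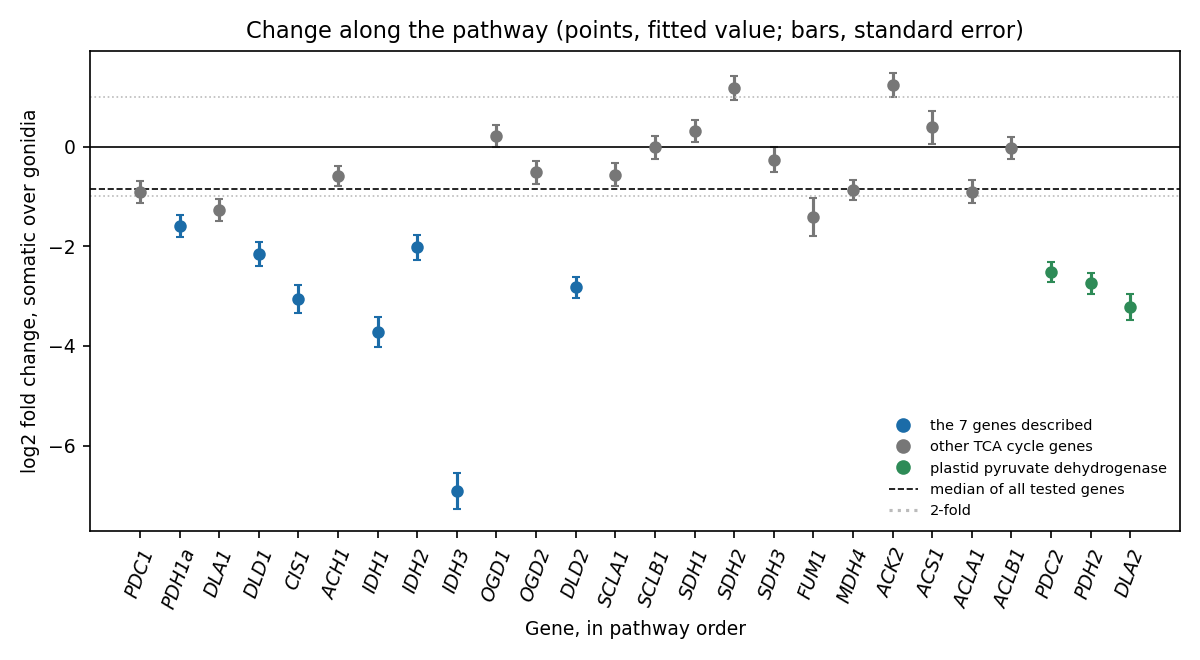
Log2 fold change (somatic over gonidial, points) with its standard error (bars) for the 7 genes in blue, the 16 other genes listed under the TCA cycle in grey and 3 plastid pyruvate dehydrogenase genes in green, in pathway order. All 7 blue points lie below the dashed median of all tested genes (−0.85) and below the lower 2-fold line, whereas the grey points run from −1.42 to 1.24.

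Beyond 2-oxoglutarate, 8 listed genes of glutamate and aspartate metabolism were compared. GS1, GS2, GS3, GS4 and ASNS, which the study also lists under amino acid biosynthesis, were left out. Of the 8, 6 were called gonidial, beside 46.7% of all tested genes, and 2 somatic, beside 26.0%. The aspartate aminotransferase AST2, which moves amino groups between glutamate and oxaloacetate, lay furthest toward gonidia at a log2 fold change of −4.18 (SE 0.37, edgeR adjusted p = 3.97e-09). AST2 had 258 and 223 counts in gonidia and only 7 and 23 in somatic cells. Glutamate dehydrogenase GDH1, which can return glutamate to 2-oxoglutarate, lay furthest toward somatic cells at 3.07 (SE 0.26, edgeR adjusted p = 2.19e-09). These genes too had been named by the study for their direction in these libraries, with the exception of GSF1 among the glutamate synthases.

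In gonidia the order of RPKM was DLD2, IDH2, DLD1, PDH1a, CIS1, IDH3 and IDH1. DLD2, at 394 to 470 RPKM, stood apart from the rest. IDH2 (68.1 to 79.7 RPKM), DLD1 (60.2 to 79.8 RPKM) and PDH1a (60.0 to 72.3 RPKM) overlapped with their neighbours, CIS1 (34.5 to 41.8 RPKM) stood apart, and IDH3 (15.5 to 20.8 RPKM) overlapped with IDH1 (13.7 to 16.1 RPKM). In somatic cells PDH1a was second to DLD2, and IDH1 (0.990 to 1.45 RPKM) and IDH3 (0.150 to 0.173 RPKM) no longer overlapped.

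DLD2 alone made up 60.6% ± 0.530 (SD, n = 2) of the summed RPKM of the 7 genes in gonidia and 49.9% ± 0.993 (SD, n = 2) in somatic cells. PDH1a took 9.28% ± 0.0252 of that sum in gonidia and 18.1% ± 1.97 in somatic cells. Among 143 carbon metabolism genes ranked by RPKM from the highest, IDH3 stood at rank 83 in gonidia and rank 138 in somatic cells, and CIS1 at ranks 68 and 106. PDH1a was at ranks 62 and 65, a shift of few places for a gene called gonidial.

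The size of the difference did not separate every gene from the next. Over the 4 pairs of a somatic with a gonidial library, the log2 ratio of normalized counts ran from −7.19 to −6.70 for IDH3, apart from the −4.07 to −3.44 of IDH1. The ranges of IDH1, CIS1 and DLD2 overlapped each with the next, as did those of DLD1, IDH2 and PDH1a, with a gap between DLD2 (−3.08 to −2.57) and DLD1 (−2.48 to −1.84). All 7 had more normalized counts in gonidial replicate 1 than in replicate 2, as had 67.2% of all tested genes, and 0 of 7 were higher in somatic replicate 1 than in replicate 2, compared with 36.4% of all tested genes.

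Each of the 7 had its nearest profile outside the group, the closest pair within it being DLD1 and IDH2 at 0.162. Likeness was the root mean square difference of centred log2(CPM + 1) over the 4 libraries, and 134 other carbon metabolism genes were searched. These far outnumber the 7, so a nearest profile outside the group is likely by number alone. The nearest to CIS1 was PHOB, listed under starch biosynthesis, at 0.0557, with 8 of all tested genes at least as near. IDH3 had the pyruvate kinase gene PYK2 as its nearest at 0.143 (10 genes at least as near), and IDH1 had PYK5, another pyruvate kinase gene, at 0.114 (105 genes). DLD2 was nearest to KAS1, a ketoacyl synthase gene of fatty acid synthesis, at 0.0926 (89 genes), followed by PDH2 of the plastid complex at 0.126 (208 genes). For the other members the nearest were AST1 to DLD1 at 0.0809 (58 genes), STA3 to IDH2 at 0.0651 (37 genes) and MDH3 to PDH1a at 0.0858 (134 genes). Over 4 libraries in 2 groups such a value follows mainly the size of the difference between the cell-types, and the added count shrinks it where counts are low.

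The scaling between libraries moved all 7 genes together. The median of all tested genes was −0.85 with the study's size factors, −0.73 with plain totals, −0.26 with TMM and −0.14 with DESeq2's size factors. All 7 genes kept a negative log2 fold change and an adjusted p-value under 0.05 in edgeR under each of them, and all 7 stayed below the median of all tested genes. Under TMM and DESeq2's size factors PDH1a no longer reached 2-fold (−0.88 with DESeq2's size factors), leaving 6 of 7 called gonidial beside 38.0% and 36.2% of all tested genes. DLD2 no longer passed 5-fold (−2.23 and −2.11), leaving 3 of 7 above it beside 22.0% and 20.7% of all tested genes. Relative to the median of all tested genes under the study's size factors, the 7 genes ranged from −6.06 for IDH3 to −0.74 for PDH1a.

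**Figure D4:**
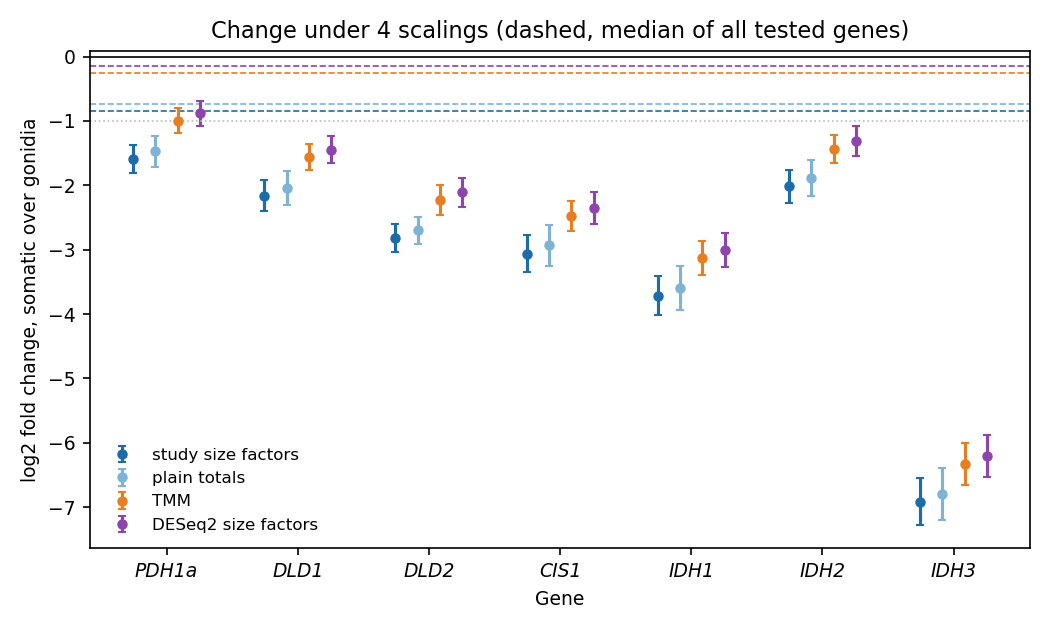
Log2 fold change (somatic over gonidial) of the 7 genes with standard errors under 4 scalings of the libraries, with the median of all tested genes under each as a dashed line of the same colour and the 2-fold limit dotted. Every point lies below 0 and below its dashed line, and PDH1a reaches −0.88 with DESeq2's size factors.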

How the data were processed

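The authors deposited counts of reads per gene model for 16008 gene models in 4 libraries, without normalization. They trimmed 50 bp single-end reads with Trimmomatic, mapped them to the version 2 assembly with STAR and assigned uniquely mapped reads with HTSeq, and the strand setting is not given in the sources used here. As in the study, the most abundant 0.3% of genes with counts (45 per library) were left out of the library sizes, and normalized counts are scaled to the mean size. Genes without counts and the bottom 10% by mean normalized count were removed, leaving 13350. To these the edgeR quasi-likelihood test (2 residual degrees of freedom) was applied, with Benjamini-Hochberg adjusted p-values. Its variances were moderated across genes (median prior degrees of freedom 17.1). The p-values therefore rest largely on variance shared among genes, not only on each gene's own replicates. Reported fold changes use this scaling. Standard errors (SE) of edgeR fits were computed back from the test, as the absolute log2 fold change divided by the square root of its F statistic.

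RPKM used plain totals after 0.1 counts were added. Gene lengths were recovered for 143 carbon metabolism genes from the counts and the mean RPKM the study lists, so means of RPKM equal those by construction and are not given, and the per-library values, ratios and shares rest on those lengths. DESeq2's Wald test, TMM and other scalings and filters, glmTreat, a replicate block and each library left out were alternatives, and the edgeR step was tested on simulated data. Nothing pairs a gonidial with a somatic library, since separate cultures were used, and deviations of same-numbered libraries correlated at −0.04.

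The 7 genes and the lists, taken from the study's annotation, were chosen with earlier results of these data known. Named beside them are the other subunits, the list members furthest toward each cell-type, the genes in a ratio and the 2 nearest by likeness. The software was edgeR 4.0.16 and DESeq2 1.42.0 in R 4.3.3, and Python 3.11.15. No sequences or coordinates are printed, since the identifiers matched no entry of the reference table used here.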

Additional observations from a re-analysis of the deposited data

How the results depend on the processing

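Each of the 7 genes kept its direction and an adjusted p-value under 0.05 in each alternative in which it was tested, the largest being 0.00247 for PDH1a under glmTreat. The 7 genes were called gonidial in 9 of 12 alternatives. The count was 6 with TMM scaling and with DESeq2's size factors, where PDH1a fell short of 2-fold, and 6 with a minimum of 10 counts in every library, which removes IDH3. The number past 5-fold was 3 in these 3 alternatives and 4 otherwise, except 5 without somatic replicate 2, where IDH2 passed (−2.42). The median log2 fold change of the 7, −2.82, moved to −2.23 with TMM, −2.11 with DESeq2's size factors and −2.49 with the minimum of 10 counts. Of all tested genes, 46.7% were called gonidial in the main fit, 38.0% with TMM and 36.2% with DESeq2's size factors. Past 5-fold these shares were 29.1%, 22.0% and 20.7%. Shares were not computed for every alternative, so the counts of genes called do not alone show that these genes stand out. The number of other TCA cycle genes called gonidial, 2, moved to 0 with TMM, 0 with DESeq2's size factors and 0 with glmTreat (2 at an unadjusted p under 0.05 in edgeR's glmTreat), and ranged from 2 to 4 with a library left out. In those fits a cell-type with 1 library left is assumed to vary like the other.

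The sign of OGD2 turned with TMM (0.085) and DESeq2's size factors (0.20), that of CIS2 likewise (0.43 and 0.54), and that of ACH1 likewise (0.014 and 0.13). The cause of these shifts beyond the common scaling was not tested. With TMM and DESeq2's size factors PDC1 lost its adjusted p-value under 0.05 and OGD1 gained one, higher in somatic cells. The within-library ratios do not depend on scaling. With a library left out, the log2 difference ranged from −3.34 to −2.57 for CIS1 to CIS2, from −7.46 to −6.66 for the isocitrate dehydrogenases to ICL1, from −0.75 to −0.57 for PDH1a to PDC1 and from −0.95 to −0.79 for DLD1 to DLA1. With 2 libraries per cell-type such a shift cannot exceed the pooled SD, so it is no test of stability. With the replicate number as a term (replicate block) the median of the 7 genes was −2.83 and 7 were called gonidial, and of the genes named with values OGD2 and ACH1 no longer passed the adjusted p-value. Low counts limit IDH3 (5 and 7), AST2 (7 and 23), AST1 (3 and 8) and FUM1 (15 and 26) in somatic cells, and ICL1 (13 and 19) in gonidia.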
